A study of Drosophila melanogaster with 16 samples.

Results

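The nuclear genes of respiratory complexes II to V were followed across all libraries of an RNA-seq study of PARP1 in Drosophila S2 cells. Members were the rows whose FlyBase symbol starts with Sdh, UQCR-, COX or ATPsyn, with no mitochondrially encoded gene, and the rule gave 48 of the 17737 genes counted. Complex II held 8 of them, complex III 9, complex IV 16 and complex V 15. On mean level over the 16 libraries the members fell into separate classes. There were 30 main subunits at 15.8 CPM or more (counts-per-million), 2 members, COX7AL and COX7CL, at 1.25 and 1.52 CPM, and 16 members below 1 CPM. The last 18 carry an L in their symbol and are described apart from the main subunits. The symbol rule also took in Sdhaf3, an assembly factor of complex II, which is counted among the 30 though it is not a subunit. Some subunits of the same complexes have other symbols (blw, sun, levy, cype, RFeSP, Cyt-c1) and are given at the end for comparison.

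Mitochondria pass electrons along a chain of membrane complexes to oxygen and use the resulting proton gradient to make ATP. Complex II (succinate dehydrogenase) takes electrons from the citric acid cycle, complex III (the cytochrome bc1 complex) hands them to cytochrome c, complex IV (cytochrome c oxidase) passes them to oxygen, and complex V (ATP synthase) makes the ATP. Complex II is built from nuclear genes alone, while the other complexes combine nuclear subunits, translated in the cytosol and imported, with a few subunits encoded in the mitochondrial genome.

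S2 cells, a cultured line from Drosophila embryos, were left untreated (WT), depleted of PARP1 by siRNA (KD), or given 10 µM PJ34 for 16 h to block PARP activity (PARPi). The labels also give each library a month: December has 3 WT, 3 PARPi and 3 KD libraries, and October has 3 WT and 4 KD libraries. PARP1 is the enzyme that builds chains of ADP-ribose on itself and on histones, and the comparisons ask which transcripts follow its loss and which follow the block of its activity. The study's methods call the RNA-seq experiments independent, but neither they nor the labels say whether the libraries of a group came from separate cultures. If they did not, the p-values measure only a technical spread between libraries. In bulk RNA, fewer cells with a transcript and less of it per cell cannot be told apart.

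The gene counts of a library summed to between 58531662 and 90439074. The transcript of the targeted gene, Parp1, lay between 159 and 181 CPM in WT and between 137 and 167 CPM in KD of December, and between 77.6 and 95.3 CPM in WT and 76.3 and 87.9 CPM in KD of October. Its ranges overlapped in both months, and neither fall passed edgeR's test (adjusted p = 0.320 and 0.0962), so the mRNA does not check the KD labels. The study reports depletion of the PARP1 protein by western blot, which these counts do not measure. Of 8 hemocyte-type markers for the S2 label, 7 were at 1 CPM or more in every group, against 2 of 15 testis germ line markers. The share of counts on mt:lrRNA, a ribosomal RNA of the mitochondrial genome, was between 7.89% and 12.4% in all libraries except the 4 KD libraries of October, where it was between 15.3% and 17.1%. The 48 members together took between 0.645% and 0.718% of counts in December, between 0.838% and 0.878% in October WT and between 0.656% and 0.698% in October KD.

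To compare levels between genes, CPM was divided by the summed exon length in kb, and here the complexes differed in WT of December. Complex II was lowest, with a median of 57.4 CPM per kb over its 5 main members. Complex III had a median of 177 CPM per kb over 6, complex IV of 260.0 over 8 and complex V of 279 over 11. The highest single level was that of ATPsynF, a subunit of the membrane part of ATP synthase, at 685 CPM per kb, followed by COX5A at 583 and COX7B at 547, both nuclear subunits that surround the core of complex IV. SdhA, the flavoprotein of complex II, was the lowest of the 30 at 34.4 CPM per kb, with the assembly factor Sdhaf3 at 36.9 and ATPsyndelta, of the central stalk, at 50.2. Neighbours in this order were seldom apart: in 21 of the 29 neighbouring pairs the ranges of the 3 WT libraries overlapped. Spread was widest among the complex V genes, where the highest and the lowest differed 13.6-fold, against 3.69-fold in complex II. That range rests on ATPsyndelta, at 192 CPM over 3817 bases of exon, the longest of the 30. The next lowest gene of complex V was ATPsynD at 91.1 CPM per kb. In October WT the same genes held the first 3 places, with COX7B first at 682 CPM per kb, ATPsynF at 679.7 and COX5A at 609, and SdhA was again last at 28.4. The months are separate sets of libraries, and month and library preparation cannot be told apart.

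**Figure D1:**
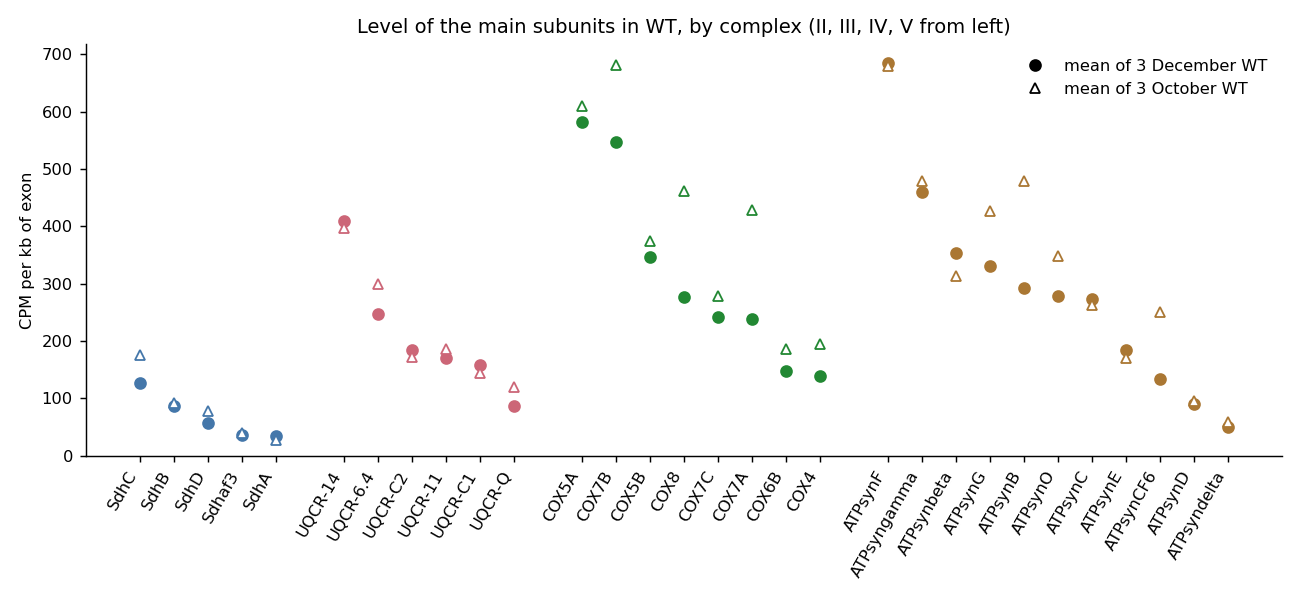
Mean level of each of the 30 main subunits in WT, in CPM per kb of exon (vertical axis, from 0), grouped by complex from II at the left to V at the right. Filled circles are December and open triangles October, each the mean of 3 libraries. The complex II genes lie at or below 127 CPM per kb in December, while ATPsynF reaches 685.

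Against WT, 1 main subunit, UQCR-6.4, passed the test in PARPi, and every main subunit that passed it in KD was lower. In PARPi this was 1 of 30, while 0.136% of all 11729 genes tested fell and 0.153% rose, and 15 of the 30 log2 fold changes were below 0 (median -0.0026, all genes -0.0099). UQCR-6.4 has 561 bases of exon. Among genes of at least 15 CPM with under 600 bases, 1.85% were lower in PARPi (median log2 fold change -0.19). At 1200 bases or more 0.12% were lower (median 0.005). The PARPi call is therefore not read as particular to the members. In KD of December 9 fell and none rose, beside 5.65% of all genes lower and 2.08% higher. Among genes of at least 15 CPM, 10.5% were lower, against 30% of the main subunits. Short genes were lower far more often, as given by class of exon length further on, and most main subunits are short, so the December count is not read as particular to them. Their median log2 fold change was -0.14, against 0.015 for all genes, and 23 of 30 lay below 0. In KD of October 22 of 30 fell and none rose, while 14% of all 12096 genes tested were lower, 13.8% were higher, and 19.1% of genes of at least 15 CPM were lower. The median was -0.18, with 27 of 30 below 0. A gene was called where its adjusted p in edgeR (quasi-likelihood test, Benjamini-Hochberg over all genes tested) was under 0.05. DESeq2 gave 2, 9 and 22 lower main subunits in the same order and none higher. By complex, 2 of 5 main members of complex II fell in December, 3 of 6 of complex III, 3 of 8 of complex IV and 1 of 11 of complex V. The October counts were 4 of 5, 4 of 6, 7 of 8 and 7 of 11.

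The KD libraries lay entirely below the WT libraries for 9 of 30 main subunits in December, against 12.5% of all genes tested, and for 19 of 30 in October, against 16.7%. The December count depends on single libraries: leaving out KD replicate 1, KD replicate 3 or WT replicate 3 left 3 members called, and leaving out WT replicate 2 left 5. UQCR-6.4, UQCR-14 and COX7B were below 0.05 with each of the 9 December libraries left out, and 15 members were below 0.05 with each of the 7 October libraries left out. SdhC, Sdhaf3, COX7C and ATPsynF each lost the December call when KD replicate 1, KD replicate 3, WT replicate 2 or WT replicate 3 was left out, and UQCR-11 and COX5A when KD replicate 1, KD replicate 3 or WT replicate 3 was. In October SdhB, Sdhaf3, COX5A, COX6B, ATPsynF, ATPsynO and ATPsyndelta lost it without at least 1 library, and each of the 7 libraries decided at least 1 of these calls. When library sizes were taken after removing the 20 most counted genes, the median of all genes in December KD moved to 0.14 and that of the main subunits to -0.016, with 5 called lower and SdhB higher, and the medians of complexes II and V turned positive. The same scaling called 25 of 30 lower in October. The shares of all genes called under this scaling are not given here, so its counts are not read as particular to the members. Scaling on nuclear genes alone, which leaves out mt:lrRNA, gave 9 and 22 lower, the same counts as the main scaling.

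**Figure D2:**
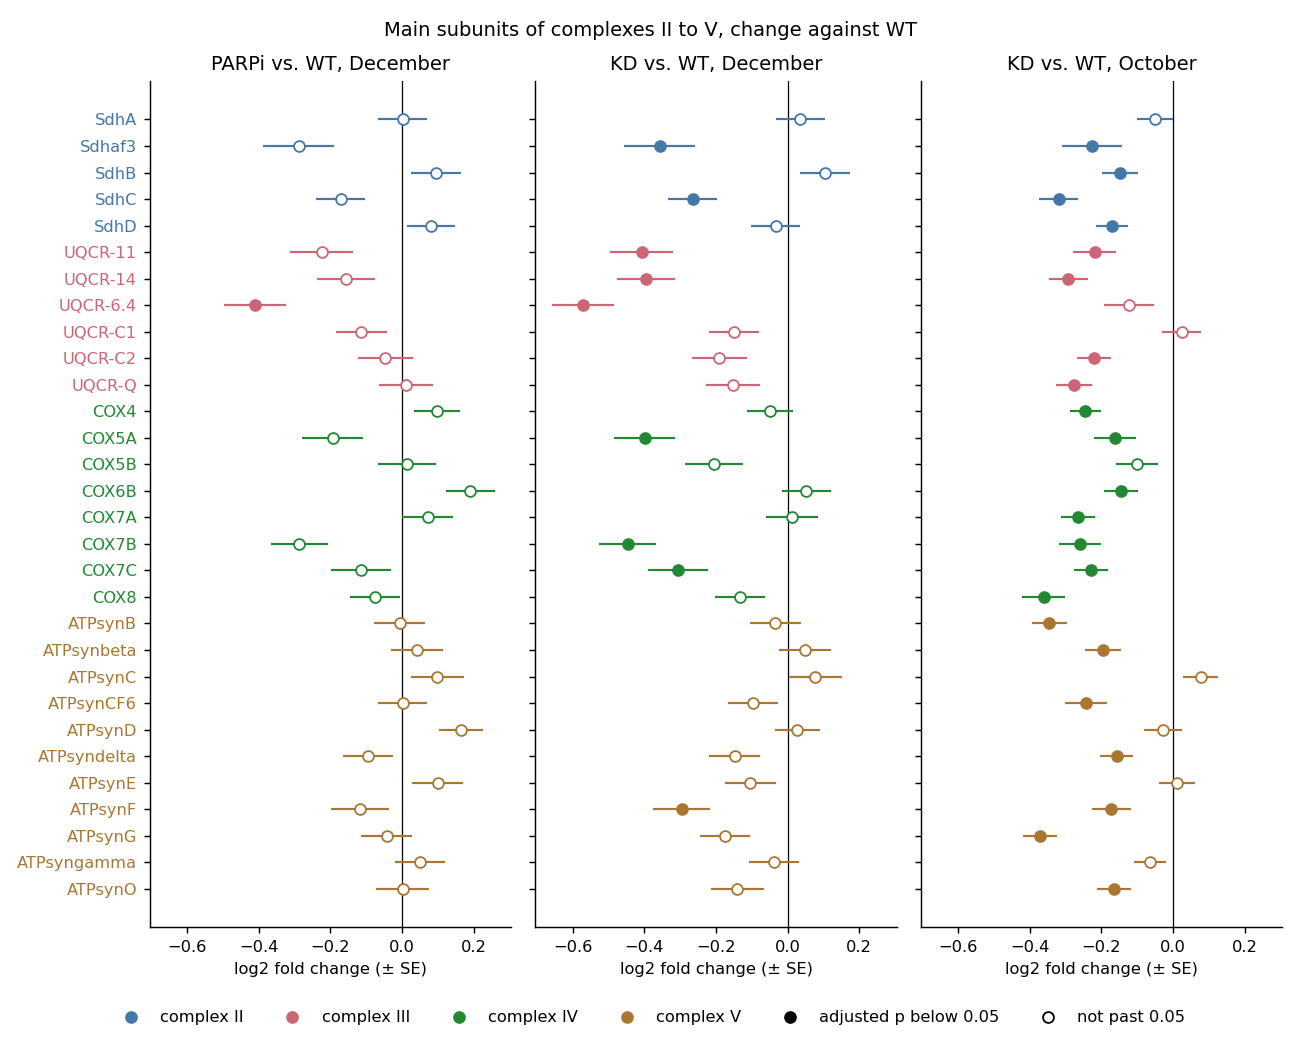
Log2 fold change against WT (horizontal axis, bars ± SE) of the 30 main subunits, coloured by complex, in PARPi of December, KD of December and KD of October. Filled points passed an adjusted p of 0.05 (edgeR): 1, 9 and 22 of 30, all of them to the left of 0.

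In complex II, the membrane anchor SdhC and the assembly factor Sdhaf3 fell in KD of both months. SdhC, which with SdhD holds the enzyme in the inner membrane and binds ubiquinone, stood at 108, 117 and 119.8 CPM in December WT, at 102, 106 and 98.2 CPM in PARPi and at 93.7, 102 and 91.1 CPM in KD. No KD library reached the lowest WT library. October gave 146, 155 and 175 CPM in WT and 123, 133, 128 and 125 CPM in KD, again without overlap. The log2 fold changes were -0.27 ± 0.068 (SE, adjusted p = 0.0183, edgeR) and -0.32 ± 0.054 (adjusted p = 0.000144, edgeR), and the October call held in all 17 alternatives tried. Sdhaf3, which helps insert iron-sulfur clusters into SdhB, was at 15.9, 18.4 and 17.7 CPM in WT, 12.2, 16.1 and 14.4 CPM in PARPi and 12.1, 15.6 and 12.99 CPM in KD of December. All KD libraries were again below all WT libraries. Its fall in December was 21.9% (log2 fold change -0.36 ± 0.0995, adjusted p = 0.0287, edgeR). In PARPi it had the smallest p of complex II, and its log2 fold change of -0.29 did not pass (adjusted p = 0.242, edgeR). In October it was at 18.5, 18.8 and 18.2 CPM in WT and at 12.5, 17.3, 17.2 and 16.3 CPM in KD, where the first KD library was far below the others. That fall sat at the threshold (log2 fold change -0.23, adjusted p = 0.04996, edgeR) and passed in 9 of 17 alternatives.

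SdhA and SdhB, the flavoprotein and the iron-sulfur protein that carry out the oxidation of succinate, moved less. SdhA was at 94.5, 95.1 and 94.0 CPM in December WT, 104, 90.8 and 89.0 CPM in PARPi and 100.2, 94.0 and 96.5 CPM in KD. SdhB was at 96.2, 109 and 112 CPM, 119, 112 and 107 CPM, and 115, 110.1 and 116 CPM in the same groups. Treated and WT libraries overlapped for both genes. In October SdhA was at 83.8, 74.8 and 75.6 CPM in WT and 75.7, 75.1, 77.7 and 73.0 CPM in KD, and it passed no test. SdhB was at 120.0, 106 and 113 CPM in WT and 108, 101, 101 and 98.1 CPM in KD, and with ranges that overlapped it fell by 0.15 on the log2 scale (adjusted p = 0.0321, edgeR). SdhD, the other membrane anchor, was at 48.2, 51.9 and 53.9 CPM in WT and 48.3, 52.0 and 50.2 CPM in KD of December, which overlapped. October set its 3 WT libraries, at 68.5, 69.0 and 71.4 CPM, above its KD libraries at 61.3, 62.9, 63.1 and 60.1 CPM, a log2 fold change of -0.17 ± 0.045 (adjusted p = 0.00708, edgeR).

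Complex III held the main subunit with the largest fall. UQCR-6.4, a small membrane subunit named for its mass in kDa, is annotated on the minus strand of 2R in BDGP6, between 17572096 and 17572784. It was at 130.4, 140.3 and 146 CPM in December WT, 93.3, 122 and 98.0 CPM in PARPi and 88.7, 101 and 90.2 CPM in KD, so every treated library lay below every WT library. Its log2 fold change was -0.41 ± 0.086 in PARPi (adjusted p = 0.0419, edgeR), the only member called there, and -0.57 ± 0.0865 in KD (adjusted p = 0.000562, edgeR), a fall of 32.7%. The KD call held in all 20 alternatives. The PARPi call held in 10 of 19 and was lost, among others, without PARPi replicate 1 or 3, KD replicate 3 or any of the 3 WT replicates. In October the gene was at 156, 174 and 176 CPM in WT and 128, 163, 168 and 159 CPM in KD. These ranges overlapped, and the log2 fold change of -0.12 ± 0.070 did not pass (adjusted p = 0.212, edgeR). POSH, a gene on the other strand with a mean of 28.9 CPM, overlaps 40.5% of the exon bases of UQCR-6.4. Without a stated strand setting their reads may be mixed, and POSH passed no test in KD of either month (log2 fold change 0.13 and 0.087).

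UQCR-11 and UQCR-14, also small subunits without a catalytic role, fell in both months. UQCR-11 was at 256, 275 and 293 CPM in December WT, 206, 262 and 237 CPM in PARPi and 187, 233 and 202 CPM in KD. UQCR-14 was at 199, 225 and 219 CPM, 175, 207 and 195 CPM, and 145, 179 and 164 CPM. For both genes KD lay below WT with no overlap, and PARPi lay between them on average. Their December log2 fold changes were -0.41 ± 0.0885 (adjusted p = 0.00625, edgeR) and -0.40 ± 0.081 (adjusted p = 0.00476, edgeR). In October UQCR-11 was at 295, 299 and 305 CPM in WT and 222, 275, 274 and 259 CPM in KD, and UQCR-14 at 203, 201 and 220.2 CPM in WT and 153, 176, 181 and 169 CPM in KD. Neither gene overlapped between the groups, and the falls were 0.22 and 0.29 on the log2 scale (adjusted p = 0.00827 and 0.000401, edgeR). Every exon base of UQCR-14 is overlapped by CG32576 on the other strand (mean 48.3 CPM), which passed no test in KD of December (log2 fold change -0.096, adjusted p = 0.483, edgeR) and fell in October (log2 fold change -0.20, adjusted p = 0.00350, edgeR). Without a stated strand setting, reads of the pair cannot be told apart.

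The core proteins UQCR-C1 and UQCR-C2, which form the matrix side of complex III, did not move together in October. UQCR-C1 was at 236, 258 and 282 CPM in December WT, 249, 238 and 231 CPM in PARPi and 233, 231 and 236 CPM in KD. UQCR-C2 was at 276, 321 and 338 CPM, 286, 312 and 307 CPM, and 267, 290.4 and 261 CPM. All groups overlapped for UQCR-C2, KD only touched the lowest WT library for UQCR-C1, and neither gene passed in December. In October UQCR-C2 was at 280.3, 288 and 305 CPM in WT and 244, 265, 242 and 248 CPM in KD, with no overlap, and fell by 0.22 on the log2 scale (adjusted p = 0.00156, edgeR). UQCR-C1 was at 256, 221 and 227 CPM in WT and 253, 241, 226 and 236 CPM in KD, within the same range (log2 fold change 0.024). UQCR-Q, a small subunit next to cytochrome b, was at 118, 113 and 121 CPM in October WT and 103, 89.3, 98.7 and 96.6 CPM in KD. The groups were apart, and the log2 fold change was -0.28 ± 0.050 (adjusted p = 0.000306, edgeR). In December UQCR-Q was at 75.6, 86.7 and 89.4 CPM in WT and 75.5, 74.0 and 77.0 CPM in KD, and it did not pass.

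In complex IV, whose nuclear subunits enclose a catalytic core encoded in the mitochondrial genome, COX7B, COX5A and COX7C fell in KD of both months. COX7B was at 209, 235 and 240.4 CPM in December WT, 175, 206 and 179.6 CPM in PARPi and 156, 184 and 162 CPM in KD. Both treated groups lay below WT. Its log2 fold change was -0.45 ± 0.080 in KD (adjusted p = 0.00203, edgeR), while -0.29 ± 0.080 in PARPi, the smallest p of complex IV there, did not pass (adjusted p = 0.139, edgeR). October gave 268, 277 and 308 CPM in WT and 211, 250.2, 249 and 240.3 CPM in KD (log2 fold change -0.26, adjusted p = 0.00232, edgeR). COX5A was at 421, 471 and 499 CPM in December WT, 364, 445 and 408 CPM in PARPi and 321, 388 and 347 CPM in KD, where only the PARPi range reached that of WT. It fell by 24.2% in KD (log2 fold change -0.40 ± 0.085, adjusted p = 0.00573, edgeR). In October it was at 448, 481 and 525 CPM in WT and 391, 463, 441 and 438 CPM in KD, which overlapped, with a log2 fold change of -0.16 (adjusted p = 0.0444, edgeR). COX7C was at 182, 218 and 220.0 CPM in December WT, 173, 211 and 189 CPM in PARPi and 160.0, 182 and 160.4 CPM in KD. The highest KD library stood just under the lowest WT library, at 182 CPM each after rounding. The log2 fold change was -0.31 ± 0.084 (adjusted p = 0.0272, edgeR).

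October added COX8, COX7A and COX4 to the falls of complex IV. COX8, a small membrane subunit, was at 211, 236 and 265 CPM in WT and 171, 186, 191 and 189 CPM in KD, with no overlap and a log2 fold change of -0.36 ± 0.061 (adjusted p = 0.000133, edgeR). In December it was at 132, 153 and 143 CPM in WT and 129, 137 and 123 CPM in KD, which overlapped. COX7A was at 289, 295 and 312 CPM in October WT and 252, 233, 257 and 251 CPM in KD, which gave a log2 fold change of -0.27 ± 0.048 (adjusted p = 0.000269, edgeR). Its December values of 162, 177 and 158 CPM in WT and 175, 171 and 155 CPM in KD covered the same range. COX4, the largest nuclear subunit of the enzyme in animals, was at 162, 177 and 174 CPM in December WT, 184, 187 and 178 CPM in PARPi and 167, 167 and 162 CPM in KD. PARPi was the highest group, by 0.098 on the log2 scale, and did not pass. In October COX4 stood at 239, 235 and 247 CPM in WT and 208, 197, 200.3 and 207 CPM in KD, and all KD libraries were lower (log2 fold change -0.24 ± 0.044, adjusted p = 0.000272, edgeR). COX6B was called lower in October alone (log2 fold change -0.14, adjusted p = 0.0279, edgeR), and COX5B in neither month.

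Complex V had the smallest share of members called in both months, 1 of 11 and 7 of 11. ATPsynF was its 1 member called in December KD, at 380.1, 443 and 441 CPM in WT, 355, 416 and 394 CPM in PARPi and 316, 372 and 342 CPM in KD. The KD libraries were all below WT (log2 fold change -0.30 ± 0.080, adjusted p = 0.0251, edgeR). In October its values were 392, 430.3 and 432 CPM in WT and 338, 397, 372 and 376 CPM in KD, which overlapped, with a fall of 0.17 on the log2 scale (adjusted p = 0.0213, edgeR). ATPsynbeta, the catalytic subunit that binds ADP, was at 833, 883 and 819.8 CPM in December WT, 919, 845 and 846 CPM in PARPi and 900.2, 911 and 813 CPM in KD. No group stood apart. October put it at 755, 751 and 739 CPM in WT and at 619, 628, 698 and 669 CPM in KD, which gave a log2 fold change of -0.20 ± 0.049 (adjusted p = 0.00516, edgeR). ATPsyngamma, the rotating shaft inside the catalytic head, was at 621, 692 and 705 CPM in December WT, 718, 694 and 678 CPM in PARPi and 653, 673 and 639 CPM in KD. It was at 699, 679 and 722 CPM in October WT and 666, 664, 657 and 690.2 CPM in KD. Groups overlapped in both months, and it passed no test.

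Among the main members of complex V, ATPsynG, ATPsynB and ATPsynCF6 had the largest falls in October. ATPsynG, a small membrane subunit, was at 331, 325 and 355 CPM in WT and 252, 252, 272 and 266 CPM in KD. ATPsynB, of the peripheral stalk that holds the catalytic head still, was at 413, 435 and 472 CPM in WT and 344, 334, 354 and 353 CPM in KD. Both were apart, with log2 fold changes of -0.37 ± 0.048 (adjusted p = 7.42e-06, edgeR) and -0.35 ± 0.050 (adjusted p = 2.62e-05, edgeR), and both calls held in all 17 alternatives. ATPsynCF6, also of the stalk, was at 166, 169 and 195 CPM in WT and 158, 138, 158 and 144 CPM in KD, with a log2 fold change of -0.24 ± 0.059 (adjusted p = 0.00380, edgeR). In December ATPsynB was at 259, 284 and 261 CPM in WT and 274, 271 and 240.1 CPM in KD, within the same range. ATPsynG was at 241, 272 and 269 CPM in WT and 224, 249 and 220.4 CPM in KD, and ATPsynCF6 at 89.7, 99.6 and 95.1 CPM in WT and 88.8, 87.6 and 89.7 CPM in KD, where the groups overlapped and neither passed. ATPsynO and ATPsyndelta were also called lower in October (log2 fold change -0.17 and -0.16). ATPsynC, the subunit of the rotor ring, ATPsynD and ATPsynE passed in neither month, with October log2 fold changes of 0.077, -0.028 and 0.010. In PARPi the smallest p of complex V was that of ATPsynD, with a log2 fold change of 0.16 that did not pass (adjusted p = 0.297, edgeR).

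**Figure D3:**
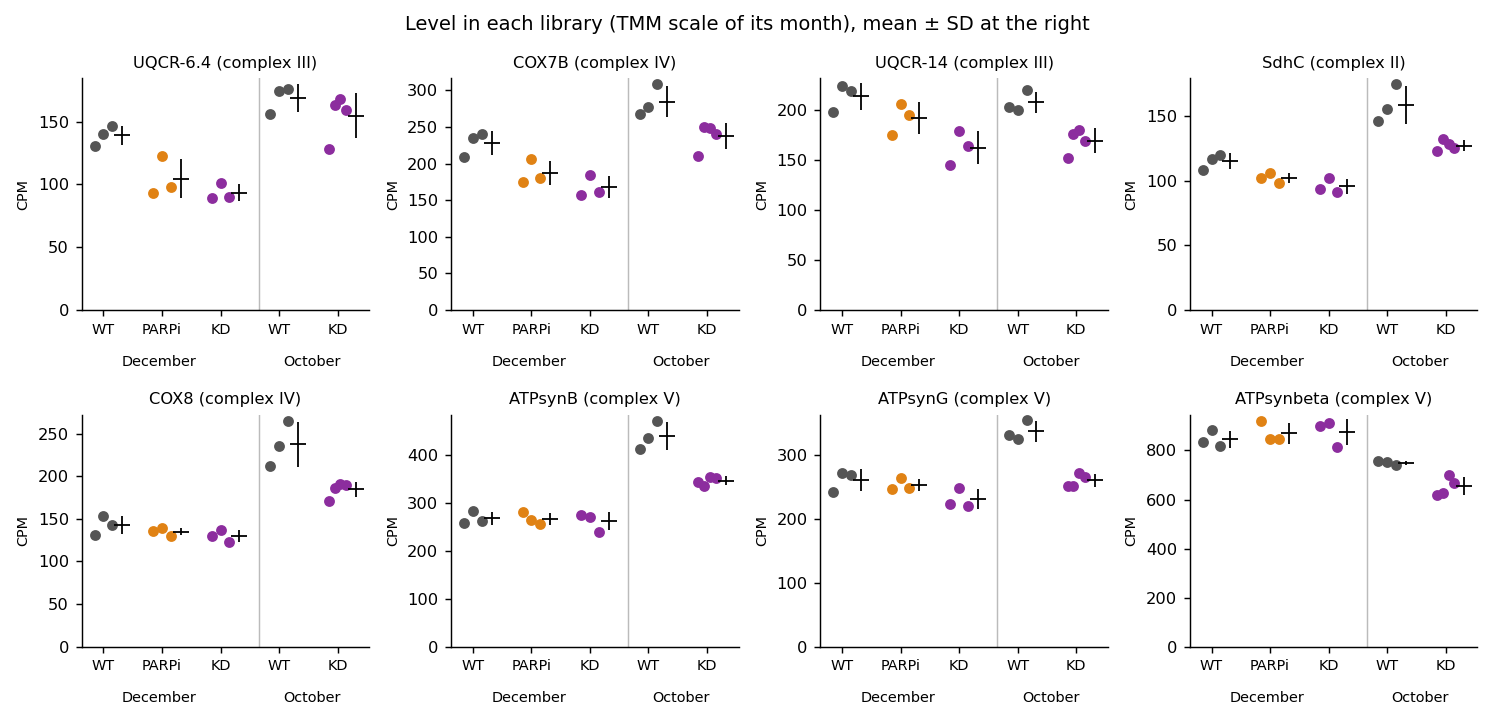
CPM of 8 main subunits in each library (vertical axis from 0, TMM scale of its month), with the mean ± SD of each group at its right. UQCR-6.4 is lower in every treated library of December. For ATPsynB and COX8 all 4 KD libraries of October lie below the 3 WT libraries, while their December ranges overlap. The difference between the months was called for ATPsynB and not for COX8.

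Of the 9 main subunits called lower in December KD, 8 (88.9%) were called lower in October too, which is 36.4% of the 22 called there. October called 73.3% of all main subunits lower, so a large overlap is not read as particular to these members. The 8 were SdhC, Sdhaf3, UQCR-11, UQCR-14, COX5A, COX7B, COX7C and ATPsynF. The months share no library. Neither month called SdhA, UQCR-C1, COX5B, ATPsynC, ATPsynD, ATPsynE or ATPsyngamma. A difference between the months was called for 3 main subunits, where 8.33% of all 12652 genes tested had a lower and 5.77% a higher KD effect in December. UQCR-6.4 fell more in December, by 0.47 on the log2 scale (adjusted p = 0.00193, edgeR). ATPsynB and COX7A fell more in October, with a difference of 0.29 (adjusted p = 0.0174, edgeR) and 0.26 (adjusted p = 0.0325, edgeR). UQCR-6.4 kept the call with each of the 13 libraries left out. ATPsynB lost it without KD replicate 1 of December or WT replicate 3 of October, and COX7A without KD replicate 1, WT replicate 1 or WT replicate 3 of December or KD replicate 2, KD replicate 4, WT replicate 2 or WT replicate 3 of October. Library sizes taken after removing the 20 most counted genes moved the median of all genes to 0.18 in this contrast. UQCR-6.4 was then no longer called (adjusted p = 0.0646, edgeR), and 17 main subunits, ATPsynB and COX7A among them, were called with the higher value in December. Shares of all genes called are not given for this scaling or for the other settings named next. Their counts are not read as particular to the members. In the fit reported here the other 27 main subunits had no call between the months, while other settings called some of them: COX5A with the replicate block, and SdhB, SdhD, COX4, COX6B, COX8, ATPsynCF6, ATPsynG and ATPsynbeta with the trend on exon length removed.

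Between KD and PARPi of December no main subunit passed the test, beside 2.55% of all genes lower and 2.98% higher in KD. At an unadjusted p below 0.05 there were 9 (edgeR), and DESeq2 called 1, UQCR-14. Of the 30 log2 fold changes 27 lay below 0, with a median of -0.13 against 0.0055 for all genes, and all 8 main subunits of complex IV were lower in KD on average. Genes of the same length were lower too: under 600 bases the members had a median of -0.16 and all genes of at least 15 CPM -0.20, from 600 up to 800 bases both had -0.16, and from 800 up to 1200 bases the medians were -0.14 and -0.11. The KD and PARPi libraries of the same number deviated together for replicates 1 and 2 (correlation 0.71 and 0.49) and less for replicate 3 (0.16). The test above had no block, and shares of all genes are not given for fits with a block. With that number as a block 7 main subunits were called lower in KD (UQCR-11, UQCR-14, COX5A, COX5B, COX7C, ATPsynE and ATPsynF). With the block and a trend on exon length removed, none was. Among single members UQCR-14 had the smallest p of complex III (log2 fold change -0.24 ± 0.081, adjusted p = 0.0849, edgeR), COX5B that of complex IV (-0.22 ± 0.081, adjusted p = 0.115) and SdhD that of complex II (-0.11 ± 0.068, adjusted p = 0.349).

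Over all genes of at least 15 CPM, the KD effect of December was lower the shorter the summed exons of a gene were. The main subunits are short, with a median summed exon length of 874 bases (417 to 3817), against 1817 for all genes tested. Among genes of at least 15 CPM in KD of December, 69.1% of those under 600 bases were lower, with a median log2 fold change of -0.39, and the 5 main subunits of that length (4 of them lower) had a median of -0.40. From 600 up to 800 bases 47.9% of genes were lower (median -0.26), and 2 of 8 members were (median -0.14). From 800 up to 1200 bases the share was 25.9% (median -0.15), and 2 of 7 members were lower (median -0.14). At 1200 bases or more 3.25% of genes were lower (median 0.022), and 1 of 10 members, UQCR-11, was (median -0.044). Its summed exons have 1613 bases and its longest transcript 1083, and classes by longest transcript were not tested. In December the members under 600 bases and from 800 up to 1200 bases thus had medians close to those of other genes of their length, those in between a higher and the longest a lower one. With a trend of counts on exon length removed, 3 main subunits stayed lower (UQCR-6.4, UQCR-11 and COX5A), COX6B was called higher, and the median of the 30 became 0.0024, against 0.017 for all genes. Shares of all genes called in that fit are not given here, so these counts are not read as particular to the members.

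In October the members had a lower median than all genes of at least 15 CPM in each class of length. Genes under 600 bases of at least 15 CPM had a median of -0.12, with 42.6% lower, while the 5 members had a median of -0.26 and 4 of them were lower. The classes that followed gave -0.13 for all genes and -0.17 for the 8 members, -0.089 and -0.23 for the 7 members, and 0.034 and -0.15 for the 10 members of 1200 bases or more. Of these, 6, 6 and 6 members were lower, against 40.1%, 31.6% and 14.8% of all genes. With the trend on length removed 14 of the 22 calls stayed and the median of the 30 was -0.13, against 0.020 for all genes. Those 14 were SdhC, UQCR-11, UQCR-14, UQCR-C2, UQCR-Q, COX4, COX7A, COX7B, COX7C, COX8, ATPsynB, ATPsynG, ATPsynbeta and ATPsyndelta. SdhB, SdhD, Sdhaf3, COX5A, COX6B, ATPsynCF6, ATPsynF and ATPsynO were no longer called. The share of all genes called with the trend removed is not given here, so the count of 14 is not read as particular to the members.

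**Figure D4:**
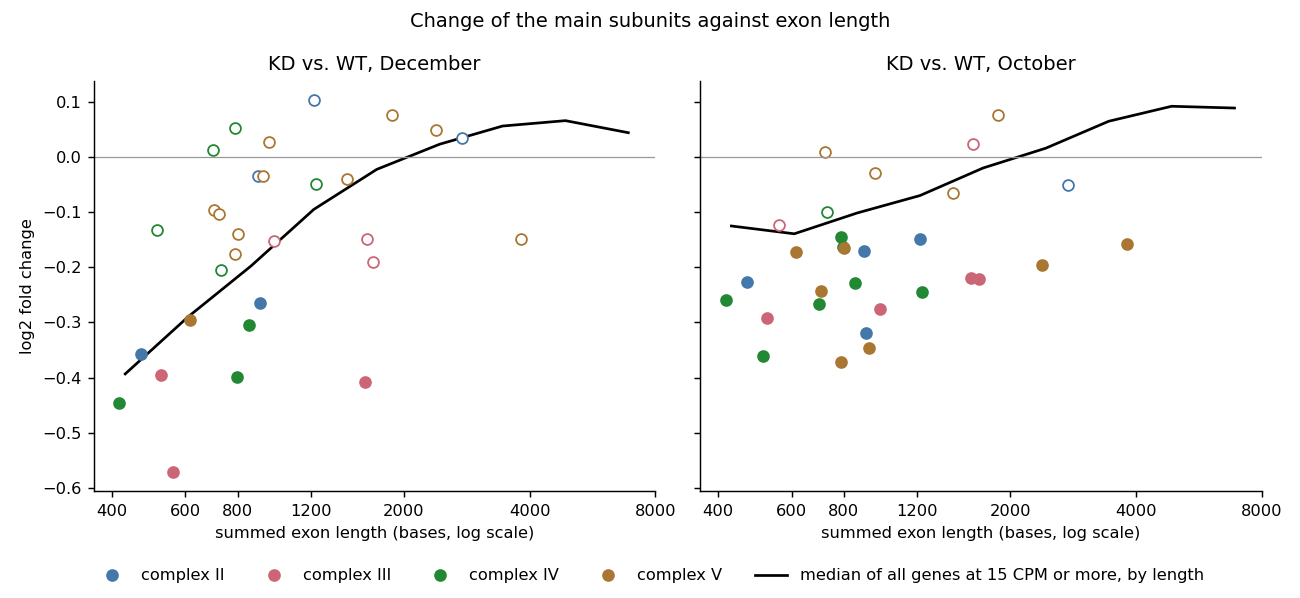
Log2 fold change of the 30 main subunits in KD (vertical axis) against summed exon length (horizontal log axis, bases), for December and October. Points are coloured by complex and filled where the adjusted p was below 0.05 (edgeR). The black line is the median of all genes of at least 15 CPM in windows of length. In December the points scatter around the line, and in October most lie below it.

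The 18 members with low levels are relatives of the main subunits. Drosophila carries duplicates of many nuclear respiratory genes, and such duplicates are known mostly from the male germ line. SdhAL and COX6CL had no count in any library. SdhBL, SdhCL, UQCR-14L, UQCR-6.4L, ATPsynCF6L and ATPsynGL had at most 3 counts in any library, and UQCR-11L, COX5BL, COX6AL, COX6AL2 and COX7AL2 at most 18. All exon bases of COX5BL are overlapped by Trmt6 on the other strand (mean 12.8 CPM), so even its few reads are uncertain. Reads shared between a duplicate and its main subunit were counted in a way not given in the sources used here. Of the 16 members below 1 CPM, 7 had enough counts to be tested in each month, and those that passed a filter on total counts are not all members.

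COX7AL and COX7CL, with some members below 1 CPM, were higher in October than in December. COX7AL had counts of 25, 31 and 12 in December WT, 12, 16 and 27 in PARPi and 19, 33 and 28 in KD. October gave counts of 170, 231 and 225 in WT and 176, 168, 126 and 127 in KD. No October library came near the December counts, and on a scale over all 16 libraries COX7AL was higher by 3.42 (log2) in WT of October than in WT of December. COX7CL had counts of 44, 54 and 64 in WT, 42, 62 and 58 in PARPi and 52, 50 and 47 in KD of December, and of 178, 138 and 223 in WT and 182, 212, 182 and 177 in KD of October. Its difference between the months was 1.93 (log2), while the median of the 30 main subunits was -0.017. Among members below 1 CPM, the same difference was 2.56 for COX4L, 1.29 for ATPsynepsilonL and, from at most 10 counts per library, 2.03 for COX6AL. COX7AL lies on the plus strand of chromosome 3R from 8343669 to 8344310. COX7A lies on the minus strand from 8339944 to 8341043, so the 2 genes point away from each other. COX7CL, on the plus strand of chromosome 2R from 10050348 to 10050874, lies just behind COX7C, which ends at 10050066 on the same strand. COX7A and COX7C differed by 0.67 and 0.023 (log2) between the same groups. COX7AL fell in KD of October, from 2.57, 3.70 and 3.55 CPM in WT to 2.78, 2.32, 1.90 and 1.99 CPM in KD. The groups overlapped, and the log2 fold change was -0.54 ± 0.15 (adjusted p = 0.0105, edgeR), which passed in 13 of 17 alternatives and not without WT replicate 2 or WT replicate 3. COX7CL did not pass.

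Among the members below 1 CPM, ATPsynepsilonL was called in the comparison of KD with PARPi. It had counts of 16, 22 and 17 in December WT, 17, 11 and 6 in PARPi and 49, 20 and 37 in KD. KD was the highest group, PARPi the lowest, and the ranges of those 2 groups did not overlap. The log2 fold change was 1.54 ± 0.41 (adjusted p = 0.0290, edgeR), and the call was lost without KD replicate 1 or 3, without PARPi replicate 2 or 3, and with only the groups compared. ATPsynbetaL had counts of 14, 13 and 16 in WT, 34, 31 and 14 in PARPi and 38, 45 and 25 in KD, with all KD libraries above WT and a log2 fold change of 1.25 that did not pass (adjusted p = 0.0534, edgeR). COX4L had counts of 10, 10 and 7 in WT, 13, 7 and 4 in PARPi and 20, 9 and 21 in KD of December, and of 31, 48 and 58 in WT and 16, 34, 32 and 27 in KD of October. Its groups overlapped in both months, its means moved in opposite directions, and the difference of 1.58 (log2) passed in the comparison of the months (adjusted p = 0.0478, edgeR) and in 10 of 23 alternatives. Of the 13 libraries of this fit, it survived leaving out only KD replicate 2 of December or WT replicate 1 of October.

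**Figure D5:**
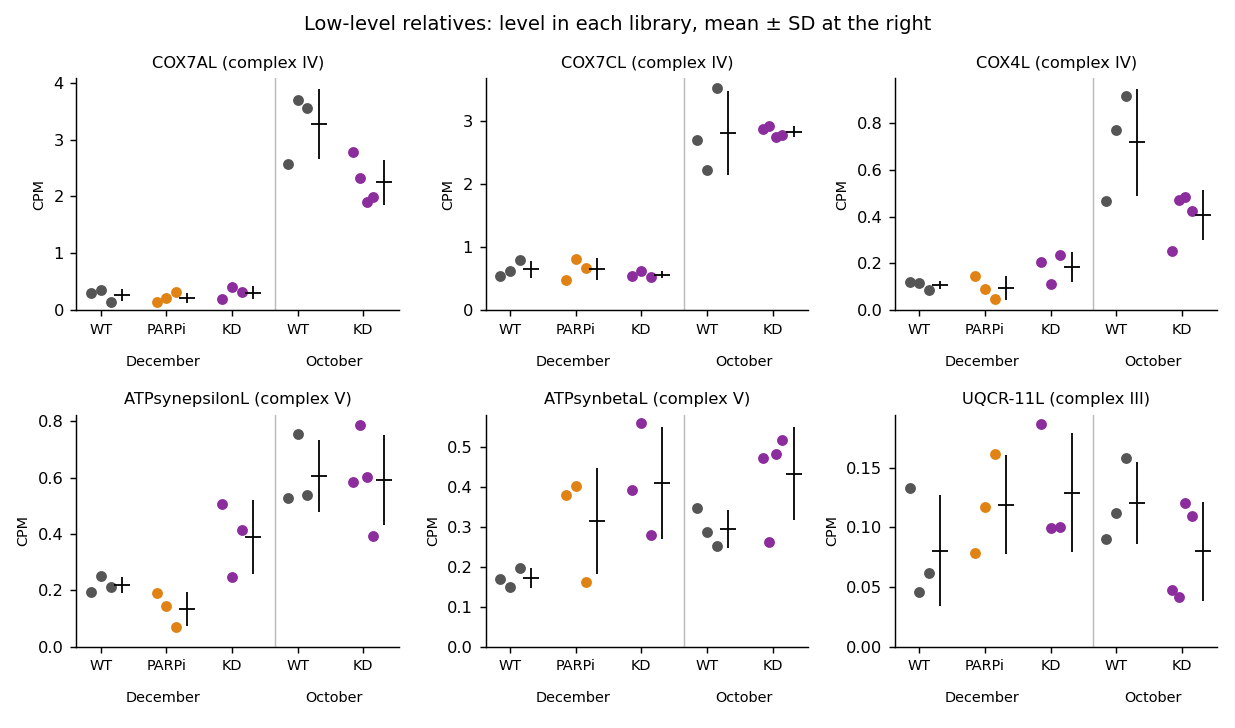
CPM of 6 low-level members in each library (vertical axis from 0), with the mean ± SD of each group at its right. COX7AL and COX7CL lie below 1 CPM in all 9 December libraries and between 1.90 and 3.70 CPM in the 7 October libraries.

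Genes around the complexes were listed by hand for comparison. Over all genes tested, 5.65% were lower and 2.08% higher in KD of December, and 14% lower and 13.8% higher in October. The lists were not set against genes of the same exon length, so their counts are not read as particular to them. Of 9 further genes of complexes III to V and of cytochrome c, 1 fell in KD of December and 3 in October. Sun, the epsilon subunit of ATP synthase, fell in both months (log2 fold change -0.48, adjusted p = 0.00292, and -0.39, adjusted p = 4.88e-05, edgeR), while blw, the alpha subunit that forms the catalytic head with ATPsynbeta, passed in neither (0.038 and -0.075). Of 35 complex I genes tested, which feed electrons from NADH into the same chain, 13 fell in December (median -0.23) and 15 in October (median -0.14), and none rose. Assembly factors and carriers (15 tested) had no call in December (edgeR, with 2 at an unadjusted p below 0.05). In October 9 of them fell and 2 rose, among them Surf1 and Cox10, assembly factors of complex IV, with log2 fold changes of -0.31 and -0.28. Citric acid cycle genes outside complex II had no call of 15 in December (1 at an unadjusted p below 0.05) and 1 lower in October. Of 12 regulators of mitochondrial biogenesis, none passed in December (2 at an unadjusted p below 0.05), and ERR, a nuclear receptor of energy metabolism, fell in October (log2 fold change -0.24, adjusted p = 0.0135, edgeR).

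Of the 5 mitochondrially encoded partners of complexes III to V tested in October, 2 were lower and 3 higher, beside 14% and 13.8% of all genes tested. Here mt:CoI, mt:CoII and mt:CoIII, the catalytic core of complex IV, rose by 0.50, 0.23 and 0.52 on the log2 scale (adjusted p = 3.50e-06, 0.00727 and 4.88e-07, edgeR) while 7 of 8 nuclear main subunits of complex IV fell. Mt:ATPase6 of complex V and mt:Cyt-b of complex III, like the nuclear subunits called in their complexes, fell by 0.43 and 0.22 (adjusted p = 3.63e-05 and 0.0197, edgeR). In December mt:CoII and mt:CoIII fell by 0.54 and 0.43 (adjusted p = 0.00612 and 0.0226, edgeR), and mt:CoI, at -0.28, did not pass. Mt:lrRNA, whose share of counts was higher in the October KD libraries, comes from the same genome, and its part in these values was not tested.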

How the data were processed

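The 16 libraries were paired-end RNA-seq of S2 cells after ribosomal depletion. The authors aligned reads to BDGP6 with STAR (2.6), counted them per gene with HTSeq (0.10.0) and deposited raw counts as whole numbers, without normalization. How strand and reads with several matches were treated, and with which annotation release, was not given in the sources used here. Of the 17737 genes, 17599 had an identifier in Ensembl's BDGP6 annotation (release 115), the source of symbols, positions and exon lengths.

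A fit kept genes whose counts over its libraries summed to 10 or more. After TMM scaling, the quasi-likelihood F test of edgeR (4.0.16, under R 4.3.3) was applied, p-values were adjusted over all genes tested after Benjamini and Hochberg, and the threshold was 0.05. December was fitted as 1 model of 3 groups over 9 libraries, October over 7 libraries, and the difference between the months over 13 WT and KD libraries. CPM values are on the TMM scale of their month, and the classes of level use a scale over 16 libraries. The design set the limit for low levels at 1 CPM with 5 CPM as alternative. Since no member had a mean between 1.52 and 15.8 CPM, COX7AL and COX7CL were described with the low-level members.

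The members, the lists and the tests were chosen with earlier results of these data known. Every member is named. Full statistics were given, per complex and comparison, for at most 3 called members in each direction, or for the member with the smallest p, and values per library for those and for the core subunits. Other members and the genes around the complexes were named after their values were seen. Between replicates of a group the chi-square per gene was between 7.35 and 131, above sampling noise, and each library was treated as 1 replicate. These values do not show whether the libraries came from separate cultures. The correlation of deviations from the group means between libraries of the same number was 0.71, 0.49 and 0.16 for KD and PARPi of December. For KD and WT it was 0.33, 0.037 and -0.072 in December and 0.14, 0.15 and -0.019 in October, and for PARPi and WT 0.25, 0.0061 and 0.074. KD replicate 2 and PARPi replicate 3, of unlike number, reached 0.29. The main fits treated no libraries as paired, and the replicate number entered as a block only in alternatives.

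Alternatives were DESeq2 (1.42.0), RLE size factors, plain library sizes after removing the 20 most counted genes, no filter, the filterByExpr filter, fits of only the groups compared, all libraries in 1 model, both months with a month term, the replicate block, removal of a trend on exon length (spline with 5 degrees of freedom, on log2 CPM with a prior count of 2), both together, and leaving out each library in turn. Scaling on nuclear genes alone and the classes of exon length were chosen after seeing the data. The scripts were tested on simulated data. Figures were drawn with matplotlib 3.10.9 (Python 3.11.15). Promoters, proteins, splicing and circRNAs were not analysed here.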

Additional observations from a re-analysis of the deposited data

Results flagged for a closer look

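For 32 members at 1 CPM or more, the 4 KD libraries of October were checked for a library far from the other 3 by Dixon's gap criterion, which chance meets about 1 time in 20. There were 2. ATPsynD in KD replicate 3 was at 82.1 CPM, where the others lay between 91.1 and 92.0 CPM. COX5B in KD replicate 1 was at 228 CPM, where the others lay between 260.3 and 267 CPM. The KD effect differed between the months for 4 members by the test of the difference itself (edgeR, adjusted p below 0.05, December minus October, log2). The difference was -0.47 for UQCR-6.4, 0.26 for COX7A, 0.29 for ATPsynB and 1.58 for COX4L, the last from counts of at most 58 per library.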

How the results depend on the processing

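Members called (main value first) changed with the processing as follows, and the cause was not tested. Shares of all genes called under these settings are not given here, so the counts are not read as particular to the members. For PARPi against WT of December (1), DESeq2 gave 2, no filter 3, the replicate block 4, the trend on exon length removed 2, the block with that trend removed 4, and library sizes after removing the 20 most counted genes, filterByExpr and only the groups compared 0; with each library left out the count was between 0 and 1. For KD against WT of December (9), the trend removed gave 4 and both months with a month term 18; with each library left out it was between 3 and 11. For KD against PARPi (1), DESeq2 gave 2, no filter 5, only the groups compared 0 and the replicate block 8, and with each library left out between 0 and 7 (7 without PARPi replicate 1, 6 without KD replicate 2, and 0 when KD replicate 1 or 3 or PARPi replicate 2 or 3 was left out). For KD against WT of October (23), all 16 libraries in 1 model gave 14, the trend removed 15 and the block with the trend removed 13, and with each library left out the count was between 16 and 23. For the difference between the months (4), DESeq2 gave 7, the 20 genes left out 18, filterByExpr 7, the trend removed 12, the block with the trend removed 13 and nuclear genes alone 7, with each library left out between 1 (KD replicate 1 of December) and 7 (KD replicate 2 of December). The replicate block gave 12 main subunits lower in December KD and 21 in October KD, where the numbers do not pair the samples. For the members with full statistics 533 values under alternatives kept direction and side of the threshold, 91 lost the call, 27 gained it and 0 reversed. The median of the main subunits changed sign in December KD with the trend on length removed (0.0024), and the medians of complexes II and V did without the 20 genes (0.094 and 0.031). The longest transcript in place of summed exons moved no main subunit by more than 4 places in the order of levels, and a limit of 5 CPM gave 18 low-level members in place of 16. Few counts limit the low-level members, with 6 to 49 per library for ATPsynepsilonL in KD and PARPi of December and 4 to 58 for COX4L. The planned search for promoter motifs and the alignment of the low-level members were not run.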

Other observations

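Ribosomal protein genes, which like the small respiratory subunits are short and highly expressed, went different ways in the months. Over all genes tested, 5.65% were lower and 2.08% higher in KD of December, and 14% lower and 13.8% higher in October. A lower KD effect in December was called for 8.33%. Short genes were lower more often in December, and the ribosomal protein genes were not compared with genes of their length. Of 88 cytoplasmic ribosomal protein genes tested 41 were lower in KD of December and none higher (median log2 fold change -0.27), while of 89 tested in October 3 were lower and 63 higher (median 0.23), and 79 of 89 had a lower KD effect in December by the test of the difference (edgeR, adjusted p below 0.05). Of 71 mitochondrial ribosomal protein genes, 31 were lower in December (median -0.22), and 19 were lower and 5 higher in October (median -0.096). The median of the 30 main respiratory subunits was -0.14 and -0.18 in the same comparisons, and none of them rose in either month.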
